A study of Mus musculus with 22 samples.

Results

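The 10 genes described here encode 4 Wnt ligands (Wnt4, Wnt5a, Wnt10b and Wnt11), 2 Frizzled receptors (Fzd1 and Fzd2), β-catenin (Ctnnb1) and 3 secreted antagonists or relatives of antagonists (Sfrp1, Sfrp2 and Dkk3). They are 10 of the 8252 genes to which the platform annotation assigns at least 1 probe set of its own, and all 12 probe sets paired with exactly 1 of these genes were taken, 3 of them for Wnt10b and 1 for each of the others. Signals were measured in whole mouse back skin of the CB6F1 strain on 22 single-colour oligonucleotide arrays. The mice labelled DN-CLIM carried a transgene (K14-DN-Clim) for a dominant-negative CLIM protein. CLIM (Ldb) proteins are nuclear cofactors of LIM domain factors, and the keratin 14 promoter that drives the transgene is active in basal keratinocytes of the epidermis and of the outer layer of the follicle. They were compared with wild-type littermates that carry no transgene per the labels. Postnatal day 6 (P6) was covered by 5 DN-CLIM and 5 wild-type arrays, and days 14 (P14) and 23 (P23) by 3 of each. Per the series' design text the first hair follicles form and grow at P6 and P14, and P23 is the first telogen, the resting phase. Which mouse or mice gave the RNA of each array is not in the labels, so the p-values measure the spread between arrays.

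Wnt ligands are secreted lipid-modified proteins that bind Frizzled receptors and their co-receptors. In the canonical branch this stabilises β-catenin, which enters the nucleus and activates genes together with LEF/TCF factors, whereas other ligands, Wnt5a and Wnt11 among them, are best known for signalling independent of β-catenin. Secreted Frizzled-related proteins (Sfrp) bind Wnt ligands outside the cell, and Dickkopf proteins (Dkk) act on the co-receptors, although Dkk3 is a divergent member whose action on Wnt signalling is less clear. In skin, Wnt signalling is known for starting follicle formation and for its activity in the matrix, the precortex and the dermal papilla of growing follicles, and in the dermis.

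Promoters of 3 members whose signals differed between ages are shown, the 2 with a match and 1 without, because LEF/TCF factors bind a short core, CTTTGA or CTTTGT, in the genes they regulate. RefSeq promoter windows on GRCm38.p6, running from 250 bases before to 50 bases after the transcript start, were matched for 6 of the 10 members, with 8 windows in all. They are printed 5′ to 3′ on the gene's strand with the cores of either strand in capitals. The Wnt11 window (first of 2 starts, chr7:98834862-98835161, plus strand) holds 1 core, read on the opposite strand at position -50 from the start. The Fzd1 window (chr5:4758167-4758466, minus strand) holds 2, at positions -242 and -37, and the Sfrp2 window (chr3:83766071-83766370, plus strand) holds 0.
Wnt11: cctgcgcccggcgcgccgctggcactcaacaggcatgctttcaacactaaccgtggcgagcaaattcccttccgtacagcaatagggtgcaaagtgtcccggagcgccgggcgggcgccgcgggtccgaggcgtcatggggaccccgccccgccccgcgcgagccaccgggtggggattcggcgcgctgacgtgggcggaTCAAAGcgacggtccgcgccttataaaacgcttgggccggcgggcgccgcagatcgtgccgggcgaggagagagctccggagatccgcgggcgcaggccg
Fzd1: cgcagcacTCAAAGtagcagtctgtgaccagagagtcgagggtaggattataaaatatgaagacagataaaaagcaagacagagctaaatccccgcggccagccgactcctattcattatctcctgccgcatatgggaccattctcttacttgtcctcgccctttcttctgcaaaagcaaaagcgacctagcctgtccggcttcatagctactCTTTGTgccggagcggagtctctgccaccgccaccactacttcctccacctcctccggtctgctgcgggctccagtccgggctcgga
Sfrp2: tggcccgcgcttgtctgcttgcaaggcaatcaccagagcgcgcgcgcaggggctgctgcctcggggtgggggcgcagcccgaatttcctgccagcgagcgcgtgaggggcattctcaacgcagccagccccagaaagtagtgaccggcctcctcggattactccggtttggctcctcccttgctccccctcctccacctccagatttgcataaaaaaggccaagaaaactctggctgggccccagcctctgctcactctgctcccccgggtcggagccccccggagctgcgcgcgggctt
The other 5 windows, of Ctnnb1 (2 starts), Wnt4, Wnt10b and the second Wnt11 start, hold 0. A core thus stood in 2 of the members' 8 windows (25%), against 31.2% of all 32851 promoter windows. The homeodomain motif TAATTA, which reads the same on both strands, stood in 5.29% of all windows and in 0 of the windows matched to members. G and C made up 71.3% of the Wnt11 window, 54.0% of the Fzd1 window and 66.0% of the Sfrp2 window, against a median of 52.7% over all windows. A match of letters is a description and does not show binding, and no factor's binding was measured here.

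All values are MAS5 signals, the linear probe-set brightness of the array software, scaled on each array to one trimmed mean. Changes are differences of mean log2 signal with their standard error (SE), tested with limma across 6211 probe sets whose mean log2 signal over the 22 arrays was at least 7.67 (a signal of 203), with Benjamini-Hochberg adjusted p under 0.05 as the threshold. The probe sets of Fzd1, Fzd2, Sfrp1, Sfrp2, Dkk3, Wnt4, Wnt5a and Ctnnb1 passed this filter. Those of Wnt11 and all 3 of Wnt10b lay below it, so they are given as levels and, where a test is named, from a fit of all 12422 probe sets. Signals are compared between groups of arrays and never between genes, whose probes differ in brightness at equal transcript number. Where groups are said not to overlap, this describes the arrays, since the share of all probe sets with groups apart is not given.

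The arrays resembled their own groups with mean correlations of log2 signal from 0.923 to 0.982, the lowest being DN-CLIM P6 replicate 5. Ldb1, from which the dominant-negative protein derives, differed between DN-CLIM and wild type by 0.30, -0.05 and 0.08 (log2) in age order (adjusted p = 0.534, 0.984 and 0.999 in limma). Whether its probes cover the transgene is not in the labels, so these values check neither. The probe sets of the skin markers Krt1, Krt10 and Col1a1 passed the filter described above. Those of the basal keratins Krt14 (mean signal 29.5) and Krt5 (41.5) and of the bulge keratin Krt15 (4.28) lay below it. Since probes differ in brightness, this does not show these keratins to be scarce, and whether their probes detect the transcripts was not tested. In whole skin, fewer cells of a type and less RNA per cell cannot be told apart.

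Between P14 and P23, as follicles passed into telogen, most of the 8 tested members were lower in both genotypes, and Sfrp2 was higher. In DN-CLIM skin 7 members fell and 1 rose, and in wild-type skin 5 fell and 1 rose. Beside them, 54.3% of all 6211 probe sets passed the threshold in DN-CLIM skin and 54.2% in wild type. With single arrays left out, the count of members past it was 6 to 8 in DN-CLIM and 6 in wild-type skin. Wnt5a, among those that fell in both, passed the filter only through its P6 and P14 arrays. The median log2 change of the 8 members was -0.55 in DN-CLIM and -0.62 in wild-type skin, beside 0.00 over all tested probe sets in each. Between P6 and P14 the members that passed were fewer, 4 of 8 in DN-CLIM skin and 2 of 8 in wild-type skin, against 26.8% and 20.8% of all tested probe sets. The DN-CLIM count was 2 without P6 replicate 5, P14 replicate 1 or P14 replicate 2, and the wild-type count was 1 without P14 replicate 1 or 2. The changes between P6 and P14 and between P14 and P23 share the P14 arrays.

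**Figure D1:**
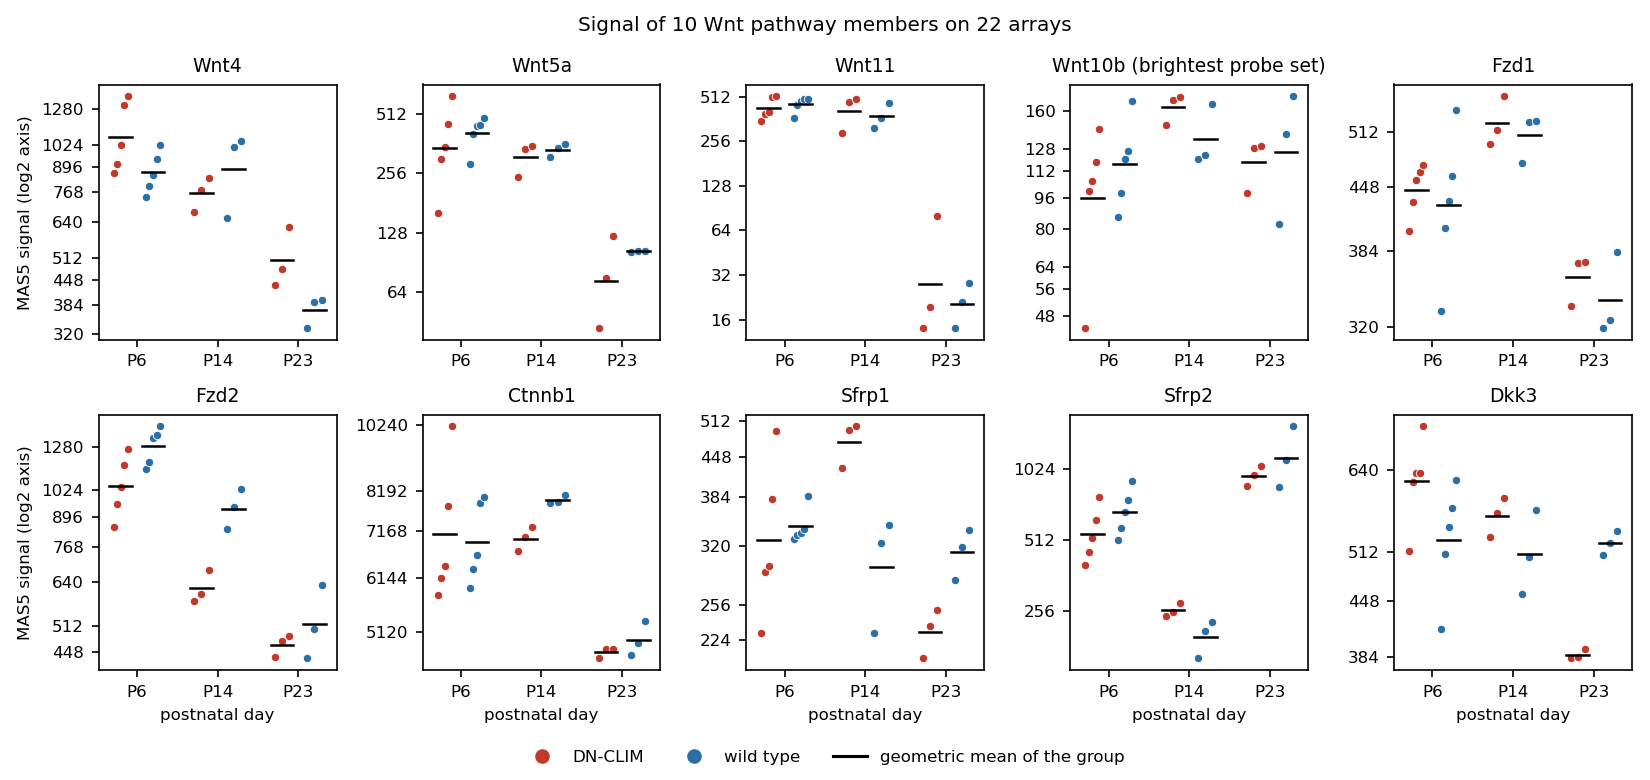
MAS5 signal (log2 axis) of the 10 genes on each of the 22 arrays, by postnatal day, with DN-CLIM in red and wild type in blue and a bar at each group's geometric mean. Wnt10b is shown by its brightest probe set. Wnt11 stood between 291.5 and 515.5 on every array at P6 and P14 and between 14.0 and 80.3 at P23.

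Wnt11, a ligand known for cell movement and polarity signalling in vertebrate embryos, showed the widest separation between ages among the members. Its signals at P6 were 516, 403, 388, 350.4 and 508 in DN-CLIM skin and 369.7, 447, 481, 495 and 494 in wild-type skin. At P14 they were 491, 291.5 and 468 in DN-CLIM skin and 365, 316 and 459.8 in wild-type skin. At P23 they were 14.0, 19.5 and 80.3 in DN-CLIM skin and 21.2, 28.0 and 14.0 in wild-type skin. Every P23 array was thus below every P6 and P14 array, and the genotypes overlapped at all 3 ages. In the fit of all probe sets, Wnt11 fell between P14 and P23 in both genotypes. Its log2 change was -3.86 (SE 0.42) in DN-CLIM skin and -4.21 (SE 0.42) in wild-type skin, with adjusted p = 1.87e-07 and 4.72e-08, where 36.2% and 34.7% of all probe sets passed. The P23 signals are near the low end of the scale, and with 50 added to each signal the change was -2.46 in DN-CLIM and -2.59 in wild-type skin (adjusted p = 3.48e-08 and 1.46e-08).

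Wnt5a, the ligand best known for β-catenin-independent signalling, was also lower at P23 in both genotypes. The P6 signals were 348, 302, 160.5, 454 and 629.9 in DN-CLIM skin and 489.9, 286, 444, 452 and 404 in wild-type skin. At P14 Wnt5a read 352, 245 and 340.15 in DN-CLIM skin and 310.1, 344 and 361 in wild-type skin. At P23 the readings were 42.1, 123 and 75.1 in DN-CLIM skin and 103, 103 and 104 in wild-type skin. The P23 arrays lay below all others, the DN-CLIM readings were spread widely at P6 and P23 (SD of log2 signal 0.74 and 0.78), and the genotypes overlapped at each age. Between P14 and P23 Wnt5a fell by 2.08 (SE 0.37) on the log2 scale in DN-CLIM and by 1.71 (SE 0.37) in wild-type skin. In limma the adjusted p was 6.29e-05 and 0.000487. Wnt5a passed the filter only through its P6 and P14 arrays, its P23 group means being 6.19 and 6.69 (log2). In the fit of all probe sets, which has no filter, adjusted p was 0.000125 in DN-CLIM and 0.000911 in wild-type skin. All its P23 signals were below the filter level of 203, where the size of a change is uncertain, and with 50 added to each signal the change was -1.51 in DN-CLIM and -1.34 in wild-type skin (adjusted p = 0.000136 and 0.000465). Between P6 and P14 its changes of -0.16 in DN-CLIM and -0.27 in wild-type skin did not pass (adjusted p = 0.758 and 0.614).

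Wnt4, a ligand that can signal through either branch and is made by keratinocytes, had a shallower decline. Its P6 signals were 1028, 865, 1309.8, 914 and 1387 in DN-CLIM skin and 746, 854, 1027, 799 and 941 in wild-type skin. At P14 they were 777, 839 and 678 in DN-CLIM skin and 653, 1049.9 and 1012 in wild-type skin. At P23 they were 478, 435 and 619 in DN-CLIM skin and 332, 391 and 394 in wild-type skin. All P23 arrays were below all P14 arrays within each genotype, and at P23 every DN-CLIM array was above every wild-type array. The log2 change between P14 and P23 was -0.59 (SE 0.19) in DN-CLIM skin and -1.25 (SE 0.19) in wild-type skin, with adjusted p = 0.0135 and 1.26e-05. Between P6 and P14 Wnt4 fell by 0.51 (SE 0.17) on the log2 scale in DN-CLIM skin (adjusted p = 0.0351), where all P14 arrays were below all P6 arrays, and its change of 0.03 in wild-type skin did not pass. That DN-CLIM change lost its call with no filter (adjusted p = 0.0539), with array weights (0.078), with the compared arrays alone (0.0756), and with P6 arrays 1 to 3 (0.0737) or 4 and 5 (0.0778) alone. It also lost it without DN-CLIM P6 replicate 3 (adjusted p = 0.0805) or 5 (0.0734) and without P14 replicate 1 (0.073), 2 (0.0531) or 3 (0.141), and the change between P14 and P23 lost it without DN-CLIM P14 replicate 2 (0.0546) or P23 replicate 2 (0.0696).

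Wnt10b, a canonical ligand known as an early mark of the hair placode, could not be followed with these probes. Its brightest probe set ranged from 44.6 to 173 over the DN-CLIM arrays and from 82.0 to 174 over the wild-type arrays, below the filter at every age. The other probe sets ranged from 18.2 to 119 and from 8.92 to 50.2 over all arrays. At P14 the log2 difference, DN-CLIM minus wild type, was 0.27, 0.83 and -0.84 for the 3 probe sets, which disagree in sign, and none of them passed the threshold in the fit of all probe sets.

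Fzd1 and Fzd2 encode Frizzled receptors of the same subfamily, and both had their lowest group means at P23. Fzd1 ranged at P6 from 403 to 473 in DN-CLIM and from 332 to 539.6 in wild-type skin, at P14 from 497 to 558 and from 475 to 525.8, and at P23 from 336 to 374 and from 319 to 383. It fell between P14 and P23 by 0.53 (SE 0.14) on the log2 scale in DN-CLIM and by 0.57 (SE 0.14) in wild-type skin (adjusted p = 0.00342 and 0.00192), and no P23 array reached a P14 array. Its changes between P6 and P14 (0.23 and 0.24) did not pass (adjusted p = 0.188 and 0.195).

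Fzd2 was highest at P6, intermediate at P14 and lowest at P23 in both genotypes. Its signals at P6 were 1163, 953, 849.5, 1044 and 1267 in DN-CLIM skin and 1419, 1185, 1359.9, 1335 and 1141 in wild-type skin. At P14 they were 582, 684 and 602 in DN-CLIM skin and 839, 938 and 1031 in wild-type skin. At P23 Fzd2 read 474, 486 and 438 in DN-CLIM skin and 505, 633 and 434 in wild-type skin. All 3 DN-CLIM arrays at P14 were below the lowest wild-type array, and the genotypes overlapped at P6 and P23. Between P6 and P14 Fzd2 fell by 0.75 (SE 0.13) on the log2 scale in DN-CLIM and by 0.46 (SE 0.13) in wild-type skin, with adjusted p = 0.000278 and 0.0168. Between P14 and P23 it fell by 0.42 (SE 0.15) in DN-CLIM and by 0.85 (SE 0.15) in wild-type skin, with adjusted p = 0.0224 and 5.14e-05. Single arrays decided the weaker calls: the DN-CLIM change between P14 and P23 missed the threshold without P14 replicate 2 (adjusted p = 0.0913) or P23 replicate 3 (0.0766), and the wild-type change between P6 and P14 missed it without P14 replicate 1 (0.0991) or 2 (0.0505) and with P6 arrays 4 and 5 alone (0.115).

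Ctnnb1 encodes β-catenin, the effector of the canonical branch and a partner of cadherins at cell junctions. Its P6 signals were 5796, 6132, 6392, 7808 and 10178.5 in DN-CLIM skin and 5932, 6619.6, 6321, 7872 and 8054 in wild-type skin. At P14 they were 7275, 6709.5 and 7029.9 in DN-CLIM skin and 7893, 7903 and 8084 in wild-type skin. At P23 Ctnnb1 read 4690.05, 4839 and 4841 in DN-CLIM skin and 4738, 5322 and 4942 in wild-type skin. The 6 P23 arrays were the 6 lowest, and at P14 each DN-CLIM array was below each wild-type array by a small margin. Ctnnb1 fell between P14 and P23 by 0.55 (SE 0.15) on the log2 scale in DN-CLIM and by 0.67 (SE 0.15) in wild-type skin (adjusted p = 0.00427 and 0.000745), and its changes between P6 and P14 (-0.02 and 0.20) did not pass (adjusted p = 0.927 and 0.316). Transcript level does not show the amount of stabilised or nuclear protein, which is what Wnt ligands regulate.

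Sfrp2, a secreted Wnt-binding protein made in skin mainly by dermal cells, was the member that rose into telogen. At P6 its signals were 623, 524, 779, 400.0 and 457 in DN-CLIM skin and 911, 759, 672, 573 and 512 in wild-type skin. P14 readings were 254, 275 and 243 in DN-CLIM skin and 229.5, 210.5 and 160.2 in wild-type skin. P23 readings were 1059.3, 972 and 865 in DN-CLIM skin and 1119, 863 and 1559 in wild-type skin. Within each genotype the P14 arrays were the lowest, apart from all P6 and P23 arrays, and at P14 each DN-CLIM array was above each wild-type array. Over the interval from P6 to P14, Sfrp2 fell by 1.07 (SE 0.21) on the log2 scale in DN-CLIM and by 1.76 (SE 0.21) in wild-type skin, with adjusted p = 0.000758 and 2.55e-06. Between P14 and P23 it rose by 1.90 (SE 0.24) in DN-CLIM and by 2.53 (SE 0.24) in wild-type skin, 3.74-fold and 5.79-fold, with adjusted p = 6.55e-07 and 9.21e-09.

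Sfrp1, a second secreted Wnt-binding protein, had DN-CLIM arrays on opposite sides of the wild-type arrays at P14 and P23. Its P6 signals were 289.7, 382, 493.3, 296 and 229.96 in DN-CLIM skin and 328, 386, 341, 336 and 333 in wild-type skin. At P14 they were 502, 496 and 429 in DN-CLIM skin and 323, 346 and 229.6 in wild-type skin. At P23 they were 250.4, 209 and 236 in DN-CLIM skin and 281, 319 and 339 in wild-type skin. Every DN-CLIM array was above every wild-type array at P14 and below every one at P23, and the groups overlapped at P6. Between P14 and P23 Sfrp1 fell by 1.04 (SE 0.21) on the log2 scale in DN-CLIM skin (adjusted p = 0.000252), and its change of 0.08 (SE 0.21) in wild-type skin did not pass (adjusted p = 0.762). From the first to the second age it rose by 0.54 (SE 0.19) in DN-CLIM skin with overlapping groups (adjusted p = 0.0365), against a change of -0.22 in wild-type skin that did not pass (adjusted p = 0.445). That call was lost in 10 of the alternative fits. Among these were the fits with no filter (adjusted p = 0.058), with array weights (0.0936), with the compared arrays alone (0.134) and with P6 arrays 1 to 3 alone (0.201). It was also lost when any of 5 DN-CLIM arrays was left out: P6 replicate 1 (adjusted p = 0.0727), 4 (0.0627) or 5 (0.0782), or P14 replicate 1 (0.109) or 2 (0.115).

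Dkk3 had its lowest group mean in DN-CLIM skin at P23. Its P6 signals were 636, 722, 620.4, 635 and 514 in DN-CLIM skin and 548, 415, 577, 509 and 624 in wild-type skin. At P14 it read 534, 569 and 594 in DN-CLIM skin and 505, 575 and 457 in wild-type skin. At P23 it read 383, 392.3 and 384 in DN-CLIM skin and 525, 507 and 542 in wild-type skin. The 3 DN-CLIM arrays at P23 were close together and below every other Dkk3 reading on the 22 arrays. Dkk3 fell between P14 and P23 by 0.55 (SE 0.14) on the log2 scale in DN-CLIM skin (adjusted p = 0.0024), and its change of 0.04 (SE 0.14) in wild-type skin did not pass (adjusted p = 0.820). Changes between P6 and P14 were -0.14 in DN-CLIM and -0.05 in wild-type skin and did not pass (adjusted p = 0.446 and 0.812). Tested directly in limma, the genotype difference at P23 (adjusted p = 0.571) and its change between P14 and P23 (adjusted p = 0.680) did not pass.

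**Figure D2:**
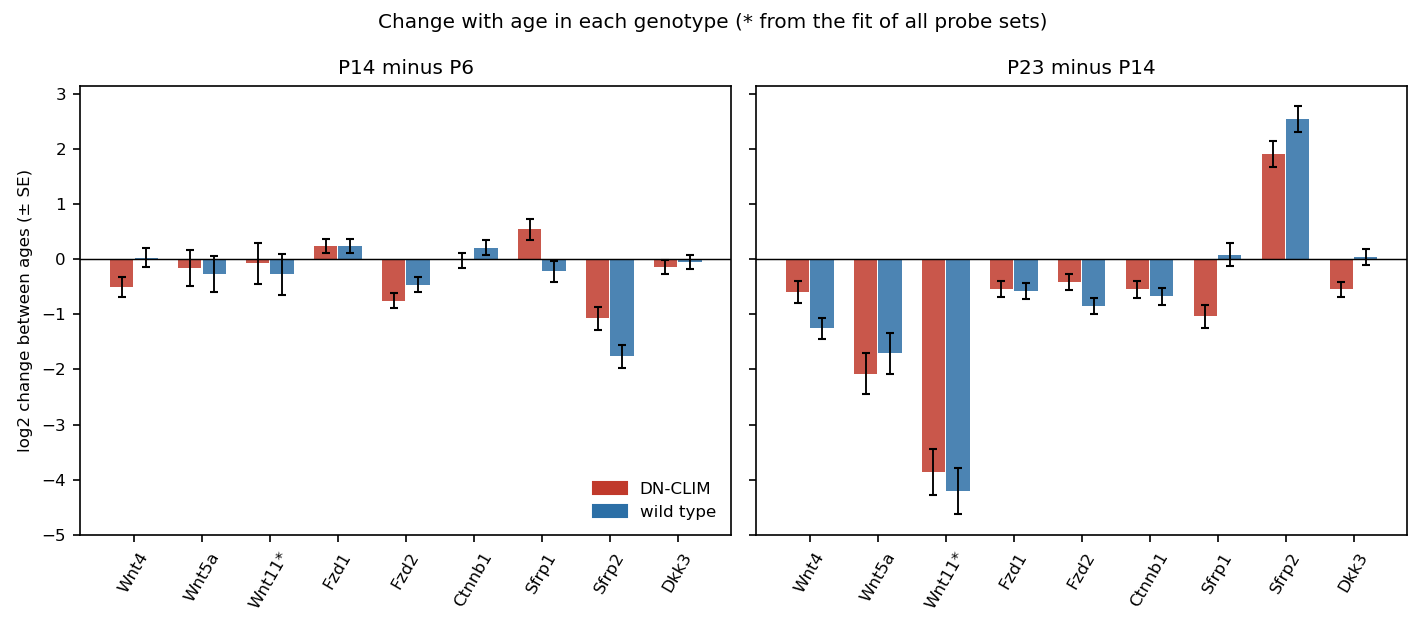
Change of log2 signal of each member except Wnt10b between P6 and P14 and between P14 and P23, in DN-CLIM (red) and wild-type (blue) skin, as bars from 0 with error bars of 1 SE either way. Wnt11, marked with an asterisk, comes from the fit of all probe sets, and Sfrp2 is the member above 0 at P23 minus P14 in both genotypes past the threshold.

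Markers of several skin compartments moved over the same ages. The summed signal of 10 measured hair matrix and shaft genes ran at P23 from 2735 to 2821 in DN-CLIM and from 2634 to 3263 in wild-type skin, against 195837 to 233999 in DN-CLIM and 208365 to 239822 in wild-type skin at P14. All 10 of these genes fell between P14 and P23 in both genotypes, whereas 9 of 10 dermal fibroblast genes rose in both. The dermal fibroblast sum at P23 was 89591 to 97512 in DN-CLIM and 94285 to 101115 in wild-type skin, and at P14 it was 49870.2 to 73821 and 59952 to 66861. Of 10 tested cell cycle genes, 8 fell in DN-CLIM and 7 in wild-type skin over the same interval. Also into P23, skeletal muscle genes rose (7 of 9 tested in DN-CLIM and 8 of 9 in wild-type skin), macrophage genes rose (4 of 5 and 5 of 5), and melanocyte genes fell (3 of 3 in both). Between P6 and P14, where Fzd2 and Sfrp2 fell, 6 of 8 genes of differentiated epidermis fell and 2 rose in each genotype. Their sum was 43158 to 47369 in DN-CLIM and 44529.5 to 48950.2 in wild-type skin at P14, and at P6 it was 147906 to 191583 and 118385 to 159858. Dermal fibroblast genes fell over that interval (7 of 10 in DN-CLIM and 6 of 10 in wild-type skin), as did cell cycle genes (5 of 10 and 6 of 10), and hair matrix genes rose (7 of 10 in both). No marker in these lists was at 0 on an array, but neither was any other probe set, so this does not show the markers to be present. The part of these shifts in the members' changes was not tested.

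Between the genotypes, 0 of the 8 tested members passed the threshold in limma at any age. At P6 the shares of all 6211 probe sets past the threshold were 0.0322%, at P14 0.0644% and at P23 0.161%, and 0.177% passed for the difference averaged over the 3 ages. Before adjustment 3 members had p under 0.05 at P6, 2 at P14, 2 at P23 and 1 in the average, beside 508, 389, 284 and 436 of all tested probe sets. Over the 8 members the median log2 difference in age order was -0.02, -0.05 and -0.20, beside -0.01, 0.00 and 0.00 over all tested probe sets.

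The members with unadjusted p under 0.05 were Fzd2, Dkk3 and Wnt4 at P6, Fzd2 and Sfrp1 at P14, and Dkk3 and Wnt4 at P23. At P6 the log2 difference was -0.30 (SE 0.12) for Fzd2, 0.23 (SE 0.11) for Dkk3 and 0.32 (SE 0.15) for Wnt4, with adjusted p = 0.560, 0.606 and 0.606, and the groups overlapped for each. An earlier analysis had seen the P6 arrays numbered 4 and 5 stand apart from those numbered 1 to 3. Within arrays 1 to 3 the P6 differences were -0.43 for Fzd2, 0.37 for Dkk3 and 0.28 for Wnt4, and within arrays 4 and 5 they were -0.10, 0.02 and 0.38, none past the threshold.

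At P14 the receptor Fzd2 differed by -0.59 (SE 0.15, 95% confidence interval -0.90 to -0.28, adjusted p = 0.179), and all 3 DN-CLIM arrays read lower than any wild-type array. Sfrp1 at P14 differed by 0.69 (SE 0.21, 95% confidence interval 0.25 to 1.12, adjusted p = 0.379), 1.61-fold higher with all DN-CLIM arrays above wild type. Sfrp2 (0.38, adjusted p = 0.858) and Ctnnb1 (-0.19, adjusted p = 0.910) also had groups that did not overlap at P14. These values did not pass the adjustment over all probe sets. The share of all probe sets whose groups did not overlap at P14 is not given here, so these separations do not show a genotype effect.

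At P23 Dkk3 differed by -0.44 (SE 0.14, 95% confidence interval -0.74 to -0.15, adjusted p = 0.571), 1.36-fold lower in DN-CLIM skin. Wnt4 at P23 differed by 0.44 (SE 0.19, 95% confidence interval 0.04 to 0.85, adjusted p = 0.984), and Sfrp1 by -0.43 (SE 0.21, adjusted p = 0.999). The groups of these 3 genes did not overlap at P23, with DN-CLIM higher for Wnt4 and lower for Dkk3 and Sfrp1. For P23 too, the share of all probe sets with groups apart is not given here. Averaged over the 3 ages, Fzd2 was closest to the threshold with a difference of -0.35 (SE 0.08, adjusted p = 0.102, 1.27-fold lower, negative at each age). Without DN-CLIM P6 replicate 5 that value was -0.37 with adjusted p = 0.0331, and with array weights it was -0.38 with adjusted p = 0.0116. These were the only 2 alternative fits that passed. Over the 5 other settings adjusted p reached 0.193. With each of the 22 arrays left out in turn it reached 0.331, and the difference ran from -0.39 to -0.30.

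**Figure D3:**
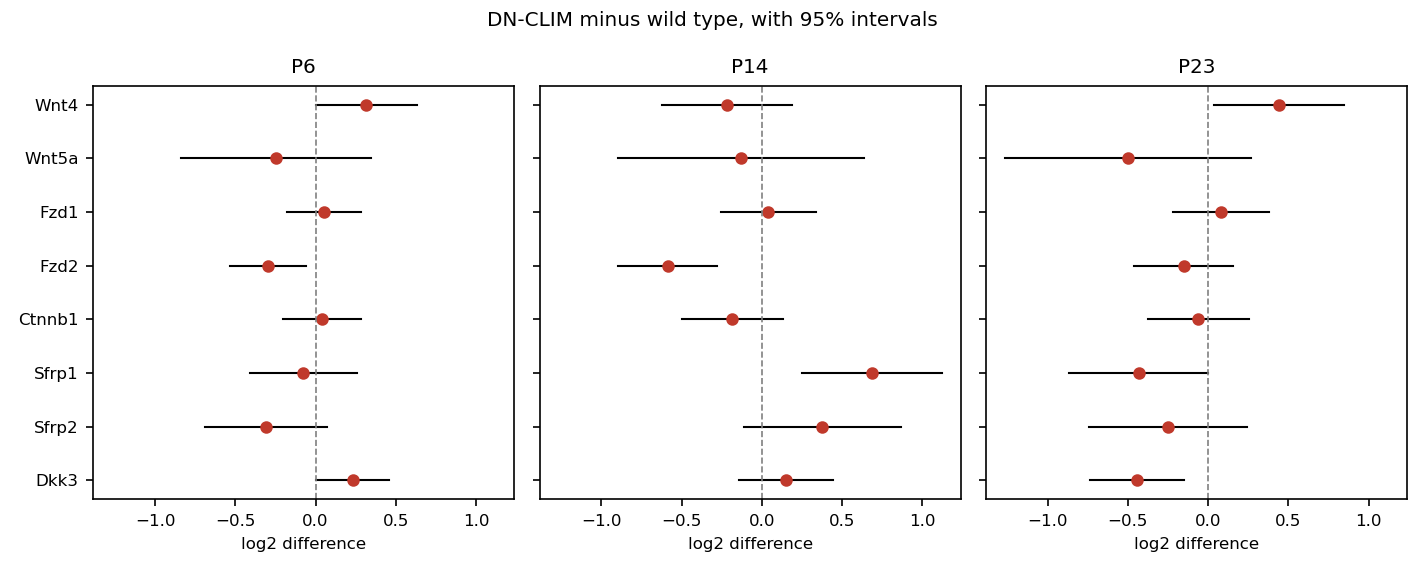
Difference of mean log2 signal, DN-CLIM minus wild type, for the 8 tested members at P6, P14 and P23, with 95% confidence intervals. The point for Fzd2 lies below 0 at all 3 ages, with an interval that spans 0 at P23, Sfrp1 lies at 0.69 at P14 and at -0.43 at P23, and 0 of the differences passed the threshold.

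Of 14 lists of cell type markers, the summed signal stood apart between the genotypes for 1 at P6 (higher in DN-CLIM skin), 4 at P14 (1 higher, 3 lower) and 4 at P23 (1 higher, 3 lower). How often sums of other gene sets stand apart is not given here. In limma the basal keratinocyte list alone had a gene past the threshold at a single age, 1 of 5 tested at P14. The sum of 7 basal keratinocyte genes at P14 was 4784 to 5282 in DN-CLIM and 5894 to 6176 in wild-type skin, and at P23 it was 9323 to 10060.0 and 11265 to 12485. Within that list Col17a1, a hemidesmosome collagen, was lower in DN-CLIM skin at P14 (log2 difference -0.62, adjusted p = 0.0149). Over the 5 tested genes of the list the median log2 difference was -0.02 at P14 and -0.03 at P23. A sum of linear signals weighs the brightest genes most, so the lower sums do not show the list lower as a set. The sum of 10 dermal papilla genes was 1452 to 1611 in DN-CLIM and 1613 to 1711 in wild-type skin at P14, and 3734 to 4039.7 against 4558 to 4672 at P23. Of these 10 genes 3 (Vcan, Igfbp3 and Sox18) passed the filter, and the rest, Corin and Alpl among them, were dim. The other lower sums were those of bulge genes at P14 (1125 to 1181 in DN-CLIM, 1344 to 1536 in wild type) and of endothelial genes at P23 (1901 to 2047 in DN-CLIM, 2081 to 2487 in wild type). Sums were higher for skeletal muscle at P6 (26742 to 34003 in DN-CLIM, 22331 to 26003 in wild type), adipocytes at P14 (6092 to 6418 in DN-CLIM, 4746 to 5876 in wild type) and erythroid genes at P23 (8112 to 9691 in DN-CLIM, 5718 to 7629.8 in wild type). Hair matrix sums overlapped between the genotypes at all 3 ages, with 93392 to 142267 in DN-CLIM and 99496 to 159467 in wild-type skin at P6. The part of these differences in the members' values was not tested.

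Whether the genotype difference itself changed between ages was tested as an interaction. For P14 minus P6, 0 of the 8 members passed, where 0.0161% of all tested probe sets did, and for P23 minus P14, 0 members passed, where 0% did. Before adjustment 3 members had p under 0.05 in each, beside 416 and 317 of all tested probe sets. The largest value among the members was that of Sfrp1 between P14 and P23, -1.12 (SE 0.30, unadjusted p = 0.00104, adjusted p = 0.360). With array weights it was -1.13 and passed (adjusted p = 0.0473), the 1 alternative fit that did. In the other settings adjusted p reached 0.389. With single arrays left out it ran from 0.296 to 0.853, and the value from -1.23 to -0.94. Dkk3 (-0.59, adjusted p = 0.680) and Wnt4 (0.66, adjusted p = 0.908) did not pass, so their age changes are not shown to differ between DN-CLIM and wild-type skin.

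For the 6 members whose group means spanned at least 1 log2 unit, the genes with the most similar course were found by the root mean square (RMS) difference of the 6 centred group means. Sfrp2 was closest to Car3, Lum and Nnmt (RMS difference 0.088, 0.0995 and 0.132 log2, against a median of 0.953 over all genes). Lum is a collagen-binding proteoglycan of the dermis and one of the dermal fibroblast markers. Between P14 and P23 Lum rose by 2.04 on the log2 scale in DN-CLIM and by 2.31 in wild-type skin. Car3, which was closer, and Nnmt are in none of the marker lists used here. Wnt5a was closest to Cdc25c, Cdk1 and Cyp2s1 (0.106, 0.151 and 0.174, median 0.977), and both Cdc25c and Cdk1 drive entry into mitosis. Wnt11 was closest to Ly6g6d, Dlx3 and Tchh (0.289, 0.343 and 0.428, median 1.95). Tchh encodes trichohyalin of the inner root sheath, and Dlx3 a homeodomain factor of the hair matrix. Fzd2 was closest to Incenp, Cps1 and Sinhcaf (0.067, 0.127 and 0.137, median 0.582), Wnt4 to Nup188, Unc45a and Ube2s (0.0945, 0.108 and 0.109, median 0.566), and Sfrp1 to Gfra3, Pcp4l1 and Cry2 (0.093, 0.111 and 0.121, median 0.397). The likeness rests on 6 points that share arrays and describes these arrays only.

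Of 113 other Wnt pathway genes in 6 lists, 74 were on the array with a probe set of their own and 40 were tested. Between P14 and P23, 5 of the 40 rose and 15 fell in DN-CLIM skin (50% of them), and 4 rose and 11 fell in wild-type skin (37.5%), beside 54.3% and 54.2% of all tested probe sets. Between P6 and P14, 2 rose and 9 fell in DN-CLIM skin, and 3 rose and 8 fell in wild-type skin, beside 26.8% and 20.8%. In the 4 genotype comparisons and the interactions 0 of the 40 passed in limma. The shares of these genes are therefore near or below those of all probe sets in telogen.

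Among the other ligands and their carriers, Wnt3 fell between P14 and P23 by 0.42 on the log2 scale in DN-CLIM and by 0.63 in wild-type skin, and Wls, which carries Wnt proteins to the cell surface, by 0.43 and 0.54. Wls also fell between P6 and P14, by 0.71 in DN-CLIM and by 0.43 in wild-type skin (adjusted p = 0.00012 and 0.0122). Among the receptors, Fzd3 rose between P6 and P14 by 0.63 and 0.92 and fell between P14 and P23 by 0.72 and 0.92 in DN-CLIM and wild-type skin. Fzd8 fell between P14 and P23 by 0.53 and 0.44, and between P6 and P14 the co-receptor Ptk7 fell by 0.78 in DN-CLIM and by 0.87 in wild-type skin. Ryk fell by 0.84 in DN-CLIM skin over that interval, and its change of -0.39 in wild-type skin did not pass (adjusted p = 0.104). The 1 tested secreted modulator outside the members did not pass in any comparison.

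Among the intracellular transducers, the casein kinases Csnk1d and Csnk1e fell between P14 and P23 by 1.34 and 1.15 on the log2 scale in DN-CLIM and by 1.30 and 1.09 in wild-type skin, and the planar polarity cadherin Celsr1 by 0.80 and 0.79. The nuclear list was split, with 3 of 9 tested genes higher and 3 lower in each genotype. Lef1, the DNA-binding partner of β-catenin in the precortex of the hair, fell by 1.37 in DN-CLIM and by 1.42 in wild-type skin (adjusted p = 1.57e-08 and 8.92e-09), Tcf7l2 by 1.34 and 1.15, and the corepressor Tle3 by 0.78 and 0.98. The coactivator Crebbp rose by 1.57 in DN-CLIM and by 1.09 in wild-type skin (adjusted p = 0.000249 and 0.00598), the corepressor Ctbp1 by 0.78 and 0.64, and Tcf7l1, a LEF/TCF factor that mainly represses, by 0.48 and 0.44. Of 9 tested known targets, 2 rose, 4 fell and 3 did not pass in DN-CLIM skin. In wild-type skin 1 rose, 2 fell and 6 did not pass. Axin2, in the target and the transducer list, did not pass (-0.12 in DN-CLIM and -0.31 in wild-type skin, adjusted p = 0.625 and 0.186). Among known targets Msx2, a homeodomain factor of the hair matrix, had signals of 9.76 to 13.7 in DN-CLIM and 13.1 to 18.4 in wild-type skin at P23, against 1697 to 2160.5 and 1799 to 1902 at P14. The P23 signals are at the low end of the scale, so the size of its change is uncertain: it was -7.46 in DN-CLIM and -6.88 in wild-type skin as fitted, and -5.05 and -4.85 with 50 added to each signal (adjusted p = 4.18e-17 and 9e-17). Twist1, a dermal factor, rose by 1.68 in DN-CLIM and by 1.87 in wild-type skin. Msx2 is also one of the hair matrix markers above, and Lef1 stands in both the nuclear and the target list.

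**Figure D4:**
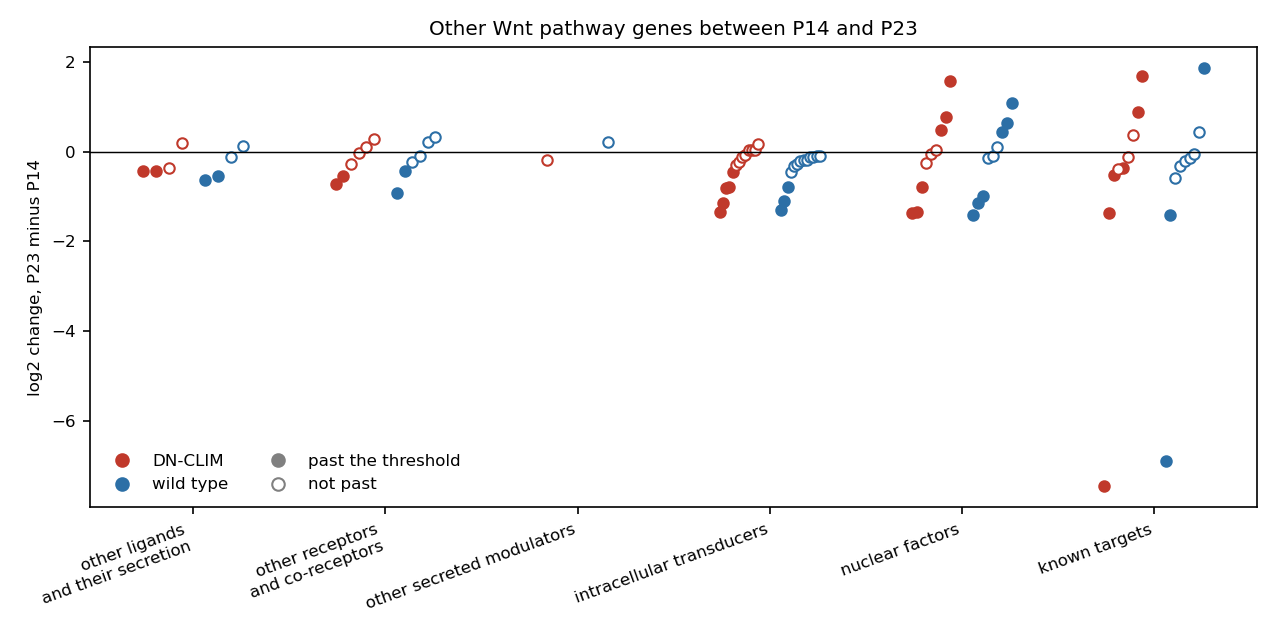
Change of log2 signal between P14 and P23 of the other tested Wnt pathway genes, by list, in DN-CLIM (red) and wild-type (blue) skin; filled points passed the threshold. Lef1 appears in the nuclear and the target list. The points at -7.46 and -6.88 are Msx2, whose P23 signals are too dim to fix the size of the change.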

How the data were processed

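Per the labels' protocols, TRIzol extracts of total back skin RNA were purified on RNeasy columns and biotin-labelled by in vitro transcription. The authors deposited 1 intensity (MAS5 signal) per probe set and array, made with MAS5 per the submitters' processing notes (release not given in the sources used here). Their 2% trimmed mean was 500.25 to 500.34 on every array, and no detection calls were used. Of 12488 probe sets, 66 array controls were left out; 10855 pair with 1 gene, 396 with several and 1237 with none.

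The log2 signals were not normalized further, since array medians (7.56 to 7.80) differed by less than 0.3. Probe sets with a mean at or above the median of all means (log2 7.67) were tested, which left 6211 for 4899 genes. limma 3.58.1 in R 4.3.3 fitted 1 mean per group to all 22 arrays, with eBayes and a variance trend, Benjamini-Hochberg adjustment over the 6211 probe sets and a threshold of 0.05, in 10 contrasts. The fit was tested on simulated data. The number of arrays limits the precision. Alternatives were no filter, 50 added to each signal, quantile normalization, array weights, the compared arrays alone, a replicate block, the P6 split and each array left out, with some for Wnt11, Msx2 and the P6 split added after seeing the data. The members, gene lists, naming rule and alternatives were chosen with earlier results of these data known. All 10 members are named, with up to 3 genes per pathway list and contrast, the 3 nearest genes by likeness, and Ldb1. Lum and Col17a1 were picked from the marker lists, and Axin2 from the pathway lists, after their values were seen. For pathway lists, the probe set with the highest mean signal stood for a gene.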

Additional observations from a re-analysis of the deposited data

Results flagged for a closer look

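Among the groups of 5 arrays, 24 were examined for a single array far from the rest, of which chance would single out about 1 in 20, and 2 stood out. Sfrp1 on wild-type P6 replicate 2 had a log2 signal of 8.59, against 8.36 to 8.41 on the other wild-type P6 arrays, a gap of 0.751 of the group's range (critical value 0.71). One dim probe set of Wnt10b on wild-type P6 replicate 1 had a log2 signal of 5.09, against 4.07 to 4.34, a gap of 0.738 of the range.

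Sfrp1 was higher in all DN-CLIM arrays than in all wild-type arrays at P14 (log2 difference 0.69) and lower in all of them at P23 (-0.43). The change of the difference between these ages was -1.12 (SE 0.30), with adjusted p = 0.360 in limma, so the opposite directions are not shown to differ past the threshold.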

How the results depend on the processing

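Of 22 member results past the threshold, 17 stayed past it in every fit run and 5 lost it in at least 1; of 14 with unadjusted p under 0.05 but not past it, 12 stayed there and 2 passed in at least 1 fit; 0 reversed in sign. The count of members past the threshold between P6 and P14 in DN-CLIM skin was 4 as reported and 2 with no filter, with array weights and with the compared arrays alone, and it ranged from 2 to 4 as single arrays were left out. The same count in wild-type skin ranged from 1 to 2 with arrays left out. With P6 arrays 1 to 3 alone, a split added to these age comparisons after seeing the data, it was 3 in DN-CLIM and 3 in wild-type skin, and with P6 arrays 4 and 5 alone 4 and 1. For the genotype difference averaged over the 3 ages the count was 1 with array weights and ranged from 0 to 1 with arrays left out, and for the interaction between P14 and P23 it was 1 with array weights. With the replicate number as a block the count was 3 in DN-CLIM and 3 in wild-type skin between P6 and P14 and was otherwise as reported. Same-numbered arrays of the 2 genotypes had correlations of their deviations from -0.0046 to 0.185 at P6, from -0.047 to 0.0295 at P14 and from 0.0563 to 0.249 at P23, and correlated best with their own number in 2 of 5, 1 of 3 and 3 of 3 pairs, so the numbers are not shown to pair the arrays. At P6 the best match lay within the same subset (1 to 3, or 4 and 5) for 5 of 5 DN-CLIM arrays. Over all probe sets, calls ranged over the fits from 1 to 5 at P6 (2 as reported), 0 to 13 at P14 (4), 1 to 44 at P23 (10), 6 to 26 averaged (11), 0 to 2 (1) and 0 to 20 (0) for the interactions, 956 to 1871 (1664) in DN-CLIM and 798 to 1699 (1290) in wild-type skin between P6 and P14. The cause of these shifts was not tested. Without the filter the median of all probe sets moved to 0.12 between P6 and P14 and to -0.11 between P14 and P23 in DN-CLIM skin. The Wnt11 alternatives were added after seeing the data, and its change between P14 and P23 stayed past the threshold in all of them, from -4.62 to -2.46 in DN-CLIM and from -4.45 to -2.59 in wild-type skin.

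Array number limits these results: 3 arrays a group at P14 and P23, 1 probe set for each tested member, and signals of Wnt10b at every age and of Wnt11 and Wnt5a at P23 below the filter level. Whole skin mixes cell types, and transcript level does not measure ligand or receptor protein.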
